A study of Mus musculus with 4 samples.

Results

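The IAPLTR2 group is the set of LTR loci whose repeatmasker name begins with IAPLTR2, taken from the 4 deposited LTR tables by name alone. It held 752 of the 6216 LTR loci listed in at least 1 library, under 3 names: 417 loci of IAPLTR2_Mm, 161 of IAPLTR2a and 174 of IAPLTR2b. Reads were listed at 166 of the 752 loci in WT fibroblasts, 641 in Lsh-/- fibroblasts, 231 in WT embryos and 512 in Lsh-/- embryos.

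Intracisternal A-particle (IAP) elements are endogenous retroviruses of the mouse that lack an envelope gene and copy themselves through RNA. Each provirus is bounded by long terminal repeats (LTRs), which are identical at the time of insertion, and the 5′ LTR carries the promoter from which the element is transcribed. IAP LTRs are rich in CpG, the dinucleotide that is methylated in mammalian DNA, and are kept methylated and silent in somatic tissue of normal mice. Lsh, encoded by Hells, is a SNF2-family chromatin remodelling protein needed for normal DNA methylation of repeats.

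RNA-seq compared WT with Lsh-/- C57BL/6J mice in 2 settings, and each of the 4 groups is a single library. The fibroblast groups were SV40-transformed cultures of WT or Lsh-/- adult tail-tip cells, and the embryo groups were WT and Lsh-/- embryos at E13.5 (days of embryonic development). The study's methods describe tissue of heterozygous and homozygous embryos of this stage, and the embryo control is called WT here after its label. The Lsh-/- allele is a constitutive deletion in the helicase region, no other allele or agent is named for any group, and the number of animals behind each library, their sex and whether a culture is 1 clone are not given in the sources used here. With 1 library per group there is no replicate check and no test of the genotype, and every interval given here covers counting error, or the spread over loci, only.

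To show how the names differ where the promoter lies, the first 300 bases of 5 elements are given, read 5′ to 3′ on the element's strand from the mm9 genome (NCBIM37), in lower case with every CpG in capitals. The first 3 are the loci with the largest Lsh-/- fibroblast count of each name. They are the plus-strand IAPLTR2_Mm at chr15:12456529-12456828 (20 CpG), the minus-strand IAPLTR2a at chr4:143578434-143578733 (13 CpG) and the minus-strand IAPLTR2b at chr4:113813758-113814057 (9 CpG). The last 2 are the loci with the largest WT counts in fibroblasts and in embryos, the minus-strand IAPLTR2b at chr5:30556398-30556697 (14 CpG) and the plus-strand IAPLTR2b at chr12:17935460-17935759 (8 CpG).
IAPLTR2_Mm on chromosome 15: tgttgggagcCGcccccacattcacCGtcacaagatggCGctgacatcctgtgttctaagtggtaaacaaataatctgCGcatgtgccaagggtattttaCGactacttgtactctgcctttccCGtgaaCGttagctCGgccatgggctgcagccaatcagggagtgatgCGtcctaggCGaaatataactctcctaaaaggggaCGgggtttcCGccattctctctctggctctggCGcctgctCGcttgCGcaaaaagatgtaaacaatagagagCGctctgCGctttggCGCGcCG
IAPLTR2a on chromosome 4: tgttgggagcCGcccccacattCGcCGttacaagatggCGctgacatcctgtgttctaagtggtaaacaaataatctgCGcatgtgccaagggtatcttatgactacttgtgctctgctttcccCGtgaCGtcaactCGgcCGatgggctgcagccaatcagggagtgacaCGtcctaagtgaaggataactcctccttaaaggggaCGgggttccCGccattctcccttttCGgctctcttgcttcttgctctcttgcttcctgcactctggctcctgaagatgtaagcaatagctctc
IAPLTR2b on chromosome 4: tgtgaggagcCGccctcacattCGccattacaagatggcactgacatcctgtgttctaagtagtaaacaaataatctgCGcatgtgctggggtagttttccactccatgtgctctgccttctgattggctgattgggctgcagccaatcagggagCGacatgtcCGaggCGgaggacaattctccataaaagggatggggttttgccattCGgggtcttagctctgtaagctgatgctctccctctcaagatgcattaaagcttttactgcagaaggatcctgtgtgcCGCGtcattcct
IAPLTR2b on chromosome 5: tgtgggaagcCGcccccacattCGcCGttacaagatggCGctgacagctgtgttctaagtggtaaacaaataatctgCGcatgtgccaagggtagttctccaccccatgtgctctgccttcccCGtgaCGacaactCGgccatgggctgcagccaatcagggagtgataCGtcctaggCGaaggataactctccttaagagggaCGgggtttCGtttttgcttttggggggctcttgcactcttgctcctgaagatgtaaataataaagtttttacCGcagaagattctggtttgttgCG
IAPLTR2b on chromosome 12: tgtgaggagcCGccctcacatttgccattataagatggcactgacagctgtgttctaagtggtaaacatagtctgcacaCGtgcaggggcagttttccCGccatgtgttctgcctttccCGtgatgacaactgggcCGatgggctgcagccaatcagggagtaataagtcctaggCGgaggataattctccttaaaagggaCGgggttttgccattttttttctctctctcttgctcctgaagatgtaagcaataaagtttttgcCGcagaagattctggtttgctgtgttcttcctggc
Over aligned positions the IAPLTR2_Mm and IAPLTR2a sequences were 89.6% identical. Identity of either to the chromosome 4 IAPLTR2b was 76.6% and 76.5%. The chromosome 5 IAPLTR2b was 87.9% identical to the IAPLTR2a and 84.2% identical to the chromosome 4 IAPLTR2b of its own name. It was 87.8% identical to the chromosome 12 IAPLTR2b. The sequence of this locus thus lay as near to the IAPLTR2a as to its nearer namesake.

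Facts of the whole series bear on these counts as follows. The 6 tables of each library together held between 19216257 and 33904311 counts, and intervals around neighbouring repeats share reads. Libraries of a pair were scaled to effective sizes of 19481559 (WT) and 20118423 (Lsh-/-) for fibroblasts and of 27051956 and 26054891 for embryos. In fibroblasts these sizes came from flanking totals of 25825025 and 15176684 with scaling factors of 0.754 and 1.33. In embryos they came from 26943655 and 26159620 with factors of 1.00 and 0.996. Ratios of summed counts and of single loci were computed at this scaling only. The 4 flanking intervals of LINE loci that lie over exons 11 to 13 of Hells held 2064 (WT) and 84 (Lsh-/-) counts in fibroblasts, and 964 and 24 in embryos, so the genotype labels match the counts. The 10 intervals over its other exons held 5784 and 6132 counts in fibroblasts and 2187 and 2014 in embryos. Intervals around LINE-1 loci on chromosome Y held 12 (WT) and 5395 (Lsh-/-) counts in fibroblasts, against 19890 and 20540 in embryos. Of the IAPLTR2 loci, 10 lie on chromosome Y, where they held 2 and 29 counts in fibroblasts, and 55 on chromosome X, where they held 28 and 734. Fibroblast results without both chromosomes stand beside the main ones, and the part of the sex chromosomes in the result was otherwise not tested. No gene table was used here, so the labelled cell type and tissue could not be checked against markers, and in embryos fewer cells of a type and less RNA per cell cannot be told apart.

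The intervals listed under an LTR name mostly ran from a 5′ LTR to a 3′ LTR, with widths that varied widely. Of the 740 loci on chromosomes of the reference, 701 (94.7%) had an alignable LTR at each end. While 95.5% began with TG, only 1 locus ended with CA. The width was under 3000 bp at 234 of these loci and 7000 bp or more at 70. Over all 752 loci the median width was 3812.5 bp, with a range of 503 to 9268 bp. At 526 of the 739 loci whose flanks could be read (71.2%) the 6 bases before the element equalled the 6 bases after it, the duplication that retroviral integration leaves in its target. This share was 77.6% for IAPLTR2_Mm, 74.4% for IAPLTR2a and 52.4% for IAPLTR2b, beside 92.6% for IAPLTR1_Mm, 69.0% for IAPLTR1a_Mm, the other main names of IAP LTRs, and 39.9% over all LTR loci outside the IAPLTR2 names.

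The 3 names differed in their LTRs. The median LTR length was 468 bp for IAPLTR2_Mm, 394 bp for IAPLTR2a and 326 bp for IAPLTR2b. The LTRs of a provirus diverge after insertion, and their median identity was 98.9%, 99% and 97.8% in the same order. The first 300 bases held a median of 14, 11 and 12 CpG, against 7 over LTR loci of other names and 15 in IAPLTR1_Mm. The polyadenylation word AATAAA, read on the element's strand in the first 300 bases, was present in 95.3% of IAPLTR2b, 17.5% of IAPLTR2a and 8.52% of IAPLTR2_Mm loci, beside 45.4% of LTR loci of other names, and the longer LTRs of the latter names reach past this window. The word TGACG, the core of the site bound by CREB-family factors, was found on the same strand in 50.9%, 38.8% and 25.1% of IAPLTR2b, IAPLTR2a and IAPLTR2_Mm loci and in 23.1% of other LTR loci, while the TATA-box word TATAAA was in 1 IAPLTR2b locus and in 15.9% of other LTR loci. The IAPLTR1 names, which are most alike, held TGACG in 80.5% (IAPLTR1_Mm) and 65.7% (IAPLTR1a_Mm) of loci, AATAAA in 59.3% and 99%, and TATAAA in 2 and 1 loci. Scarce TATAAA is thus shared with the IAPLTR1 names, and TGACG is more frequent in them. These matches are descriptions of the letters in this window and not of bound sites.

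Because only reads with 1 position in the genome were kept, near-identical elements can be read only where they differ. Of all 50-base words in the 740 loci, 15.3% occurred once in the genome. The median number of such words per locus was 376 for IAPLTR2_Mm, 435 for IAPLTR2a and 837 for IAPLTR2b, and the share ran from 10.8% for IAPLTR2_Mm to 26.5% for IAPLTR2b. Counts of different names are therefore also compared per unique position.

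In fibroblasts, IAPLTR2 loci held many more reads without Lsh. They summed to 959 counts in WT (Poisson interval 899 to 1022) and 13653 in Lsh-/- fibroblasts (13425 to 13884), a scaled ratio of 13.8 (12.9 to 14.7). IAPLTR2_Mm held 361 and 4771 counts, a ratio of 12.8 (11.5 to 14.3). IAPLTR2a held 205 and 3760 counts, a ratio of 17.8 (15.4 to 20.5). IAPLTR2b held 393 and 5122 counts, a ratio of 12.6 (11.4 to 14). The higher ratio of IAPLTR2a rested on 1 locus with 45.6% of its Lsh-/- reads, and without the largest locus of each name the ratios were 11.6, 9.66 and 9.59 for IAPLTR2_Mm, IAPLTR2a and IAPLTR2b. All 3 ratios lay below those of IAPLTR1_Mm (90.1) and IAPLTR1a_Mm (92.5), whose intervals of 83.1 to 97.8 and 82.9 to 104 do not overlap the ones given for the IAPLTR2 names.

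In E13.5 embryos the same comparison gave a smaller ratio. The group summed to 2760 counts in WT (2658 to 2865) and 7035 in Lsh-/- embryos (6872 to 7201), a scaled ratio of 2.65 (2.53 to 2.77). The ratio was 2.70 (2.51 to 2.92) for IAPLTR2_Mm, from 949 and 2470 counts. It was 4.21 (3.78 to 4.71) for IAPLTR2a, from 407 and 1651 counts, of which 684 lay on 1 locus, and 2.47 without that locus. It was 2.15 (2.02 to 2.30) for IAPLTR2b, from 1404 and 2914 counts. Without the largest locus of each name IAPLTR2_Mm was at 2.44 and IAPLTR2b at 2.73, so the order of the names turned. IAPLTR1_Mm stood at 11.8 (11 to 12.6), again above the IAPLTR2 names.

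The names were also read per unique position. Counts per 1000000 effective reads per 1000 unique 50-base words were 0.104 for IAPLTR2_Mm, 0.135 for IAPLTR2a and 0.102 for IAPLTR2b in WT fibroblasts and 1.31, 2.40 and 1.25 in Lsh-/- fibroblasts. In embryos they were 0.196, 0.193 and 0.261 in WT and 0.527, 0.814 and 0.558 in Lsh-/-. IAPLTR2a was thus highest in either Lsh-/- library, where 1 locus held 45.6% and 41.4% of its reads. On this scale the level of the whole group was 0.108 in WT and 1.47 in Lsh-/- fibroblasts. In embryos it was 0.224 and 0.590. Libraries were scaled within each tissue's pair and not across tissues, so these levels cannot be ranked between fibroblasts and embryos. Of the WT counts, 594 in fibroblasts and 2153 in embryos lay on the 10 loci with most WT reads, against 365 and 607 on the others.

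**Figure D1:**
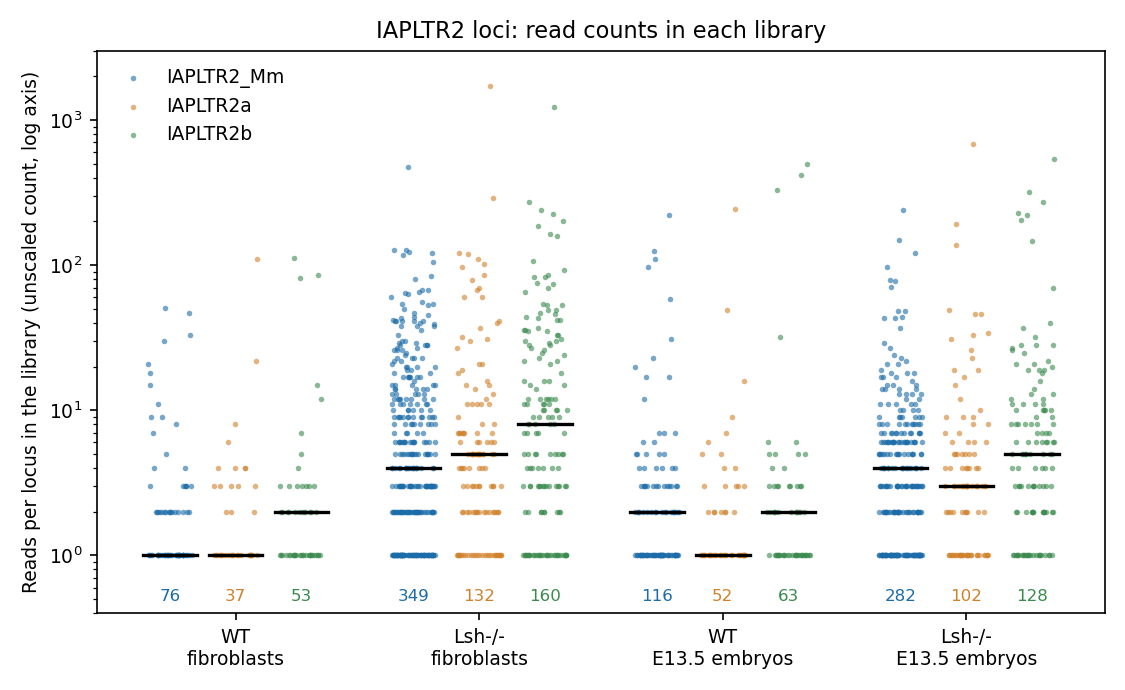
Unscaled reads per locus (log axis) at each IAPLTR2 locus with at least 1 read, in the 4 libraries (1 library per group), coloured by repeat name. Each point is a locus, black bars are medians over listed loci, and the numbers at the foot count the listed loci, which run from 76, 37 and 53 in WT fibroblasts to 349, 132 and 160 in Lsh-/- fibroblasts for IAPLTR2_Mm, IAPLTR2a and IAPLTR2b.

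The change was then read locus by locus. Each value is the scaled Lsh-/- count over the scaled WT count on the log2 scale, after a small prior count was added to either, and was taken where the pair of libraries held 10 counts or more. A locus was called when its value was above 5, a limit also marked in the study. In fibroblasts 234 of the 669 listed IAPLTR2 loci reached 10 counts, and 166 of them were above 5 (70.9%, Wilson interval 64.8 to 76.4), where 60.3% of all tested LTR loci were above it. The median was 6.58 (order-statistic interval 6.45 to 6.80), against 6.50 over all LTR loci. Without chromosomes X and Y, 154 of 217 loci (71%) were above 5. The share above 1 was 91.9% (215 loci), where 78.3% of all tested LTR loci were above 1. Below 0 were 12 loci, where 275 of all 2103 tested LTR loci were.

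The names did not separate on this measure in fibroblasts. Above 5 were 86 of 121 IAPLTR2_Mm loci (71.1%, 62.4 to 78.4), 26 of 37 IAPLTR2a loci (70.3%, 54.2 to 82.5) and 54 of 76 IAPLTR2b loci (71.1%, 60.0 to 80.0). The medians were 6.69, 6.45 and 6.58, with overlapping intervals. IAPLTR1_Mm and IAPLTR1a_Mm reached 83.5% (80.0 to 86.6) and 83.0% (79.6 to 86.0), so the interval of the whole IAPLTR2 group lay below both.

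In embryos 125 of 571 listed loci reached 10 counts and 49 were above 5 (39.2%, 31.1 to 48.0), where 26.5% of all tested LTR loci were above it. The median was 3.94 (3.14 to 4.64), against 1.04 over all LTR loci. The share above 1 was 77.6%, where 51% of all tested LTR loci were above 1. Below 0 were 18 loci, where 543 of all 1795 tested LTR loci were. By name the shares above 5 were 40.7% of 59 IAPLTR2_Mm, 33.3% of 21 IAPLTR2a and 40% of 45 IAPLTR2b loci, with intervals that overlap. IAPLTR1_Mm stood at 54.9% (48.8 to 61.0), above the interval of the IAPLTR2 group.

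The size of many of these values is set by the absence of WT reads. In fibroblasts 142 of the 234 tested loci (60.7%) had no WT read, and in embryos 41 of 125 (32.8%). Such a locus with 10 counts takes a fitted value of 6.32 in fibroblasts and 6.37 in embryos, so every tested locus without a WT read is above 5 by arithmetic. With these loci set at the lower bound against a floor of 3 WT counts, 34 fibroblast loci (14.5%) were above 5, where the same bound gave 16.4% of all LTR loci, and the median was 3.12. In embryos 11 loci (8.80%) were above 5 at the bound, where it gave 4.18% of all LTR loci, and the median was 2.44. At the bound the group's share thus lay near that of all LTR loci in fibroblasts and above it in embryos. IAPLTR1_Mm and IAPLTR1a_Mm had 29.8% and 17.9% above 5 at the bound in fibroblasts, and 10.3% and 4.64% in embryos. IAPLTR1a_Mm thus lay below the IAPLTR2 group in embryos on this measure. Of the tested loci of these 2 names, 70.6% and 74.4% had no WT read in fibroblasts, and 49.0% and 50.7% in embryos.

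**Figure D2:**
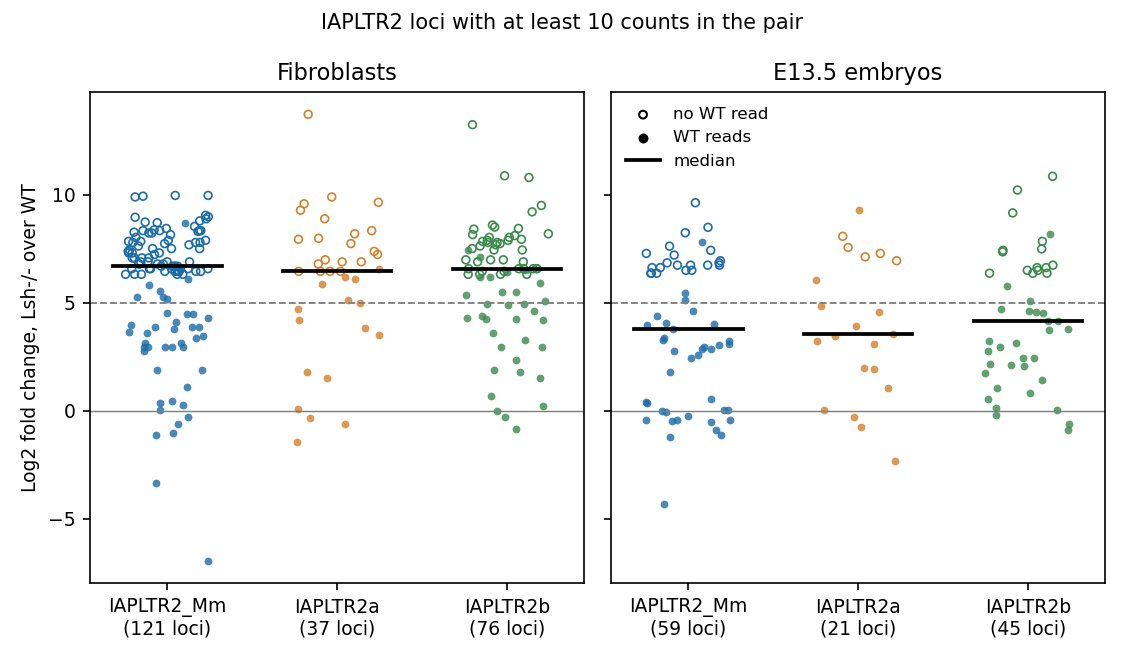
Log2 fold change (Lsh-/- over WT, y axis) of each IAPLTR2 locus that reached 10 counts, by repeat name, in fibroblasts and in E13.5 embryos (1 library per group). Open points had no WT read, filled points had WT reads, black bars are medians and the dashed line is the limit of 5. Medians lie between 6.45 and 6.69 in fibroblasts and between 3.54 and 4.14 in embryos, and a set of filled points near 0 is seen in either tissue.

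The largest Lsh-/- counts came from a few loci that were silent or nearly silent in WT. The IAPLTR2a at chr4:143573862-143578733, the LTR of which is printed above, held 0 (WT) and 1715 (Lsh-/-) counts in fibroblasts, and 1 and 684 in embryos. It lies outside genes, 2.29 kb from Pramef17, its LTRs are 100% identical, and 248 of its 50-base words are unique. Against the floor of 3 WT counts, used for every locus without a WT read, the fibroblast change was at least 554-fold, with an exact counting limit of 449.7, and the embryo ratio was 710 with a counting interval of 127 to 28091.

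The IAPLTR2b at chr4:113805854-113814057 held 0 and 1231 counts in fibroblasts and 1 and 317 in embryos. It was at least 397-fold higher in Lsh-/- fibroblasts, and the embryo ratio was 329 (58.6 to 13041). Its LTRs are 93.9% identical, it has 4340 unique words and it lies 21.9 kb from Skint11. The highest loci of the group thus included a copy with identical LTRs and few unique words and a copy with diverged LTRs and many.

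The IAPLTR2_Mm at chr15:12456529-12461574 held 1 and 475 counts in fibroblasts, a ratio of 460 (82.2 to 18205), and 5 and 79 in embryos, a ratio of 16.4 (6.74 to 51.9). It lies in Pdzd2, a gene for a PDZ-domain protein, on the strand opposite to the gene. The other IAPLTR2_Mm loci with the largest fibroblast totals, at chr10:47400411-47403310 and chr13:4869990-4875123, held 0 and 127 counts each, at least 41.0-fold. They parted in embryos, where the first held 0 and 3 counts and the second 5 and 17.

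Further loci of the same kind were found under each name. The IAPLTR2a at chr1:181824039-181831299 held 4 and 292 counts in fibroblasts, a ratio of 70.7 (27.3 to 261), and 3 and 46 in embryos. The IAPLTR2b at chrX:112966418-112974589 held 3 and 274, a ratio of 88.4 (29.9 to 432), and 2 and 28 in embryos. The IAPLTR2b at chr4:60045741-60052220, 25.6 kb from Mup6 in the cluster of major urinary protein genes, held 0 and 239 and then 0 and 70, at least 77.1-fold and 24.2-fold. All 3 were higher in the Lsh-/- library of either tissue.

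Other loci were named for their embryo counts. The IAPLTR2_Mm at chr2:118380502-118384111, 5.08 kb from Bmf, a gene for a pro-apoptotic BH3-only protein, held 1 and 241 counts in embryos, a ratio of 250 (44.5 to 9924), but 0 and 11 in fibroblasts. The IAPLTR2b at chr5:146986015-146992407, inside Gm6309 on the gene's strand, held 0 and 227 in embryos, at least 78.6-fold. In fibroblasts it held 1 and 163, a ratio of 158 (27.9 to 6272). The IAPLTR2b at chr4:3383450-3391674 held 0 and 146 in embryos and 0 and 92 in fibroblasts. The latter is at least 50.5-fold in embryos and 29.7-fold in fibroblasts. Each of the 3 was higher in the Lsh-/- library of either tissue, and the chromosome 2 locus had few reads in fibroblasts.

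The embryo list was completed by the IAPLTR2_Mm at chr7:69984978-69990084, with 0 and 97 counts in embryos and 1 and 80 in fibroblasts, and by the IAPLTR2a at chr2:152032132-152037089, with 2 and 138 in embryos and 1 and 85 in fibroblasts. The first was at least 33.6-fold higher in Lsh-/- embryos. The second had ratios of 71.6 (19.5 to 597) in embryos and 82.3 (14.4 to 3289) in fibroblasts.

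Reads were concentrated in few loci, and more so in WT. In WT fibroblasts 6 loci held 50% of the group's counts, against 27 in Lsh-/- fibroblasts. In embryos it was 4 and 14 loci. The 10 loci with the largest WT counts were the same 10 in fibroblasts and in embryos. They held 594 of 959 WT fibroblast counts (61.9%) and 2153 of 2760 WT embryo counts (78.0%). Their share of the Lsh-/- counts was 4.73% in fibroblasts and 23.3% in embryos, where the chromosome 12 locus, with 535 counts, had the second largest Lsh-/- count.

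At the scaling used, these 10 loci as a set were level between genotypes in fibroblasts and lower in the Lsh-/- embryo library. The others carried the rise. The fibroblast ratios rest on scaling factors of 0.754 (WT) and 1.33 (Lsh-/-), and ratios under another scaling were not computed. Inside the 10, fibroblasts held 594 counts in WT and 646 in Lsh-/-, a ratio of 1.05 (0.941 to 1.18), and embryos held 2153 and 1642, a ratio of 0.792 (0.742 to 0.845). Outside them, fibroblasts held 365 and 13007 counts, a ratio of 34.5 (31.1 to 38.4), and embryos held 607 and 5393, a ratio of 9.22 (8.48 to 10.0). The pooled ratios of 13.8 and 2.65 therefore mix a small set of loci with many WT reads, at 1.05 and 0.792, with a large set with few or no WT reads. The 10 were picked by their WT counts, which lowers their own ratio, so the other tissue was read as well. The 15 loci with 10 or more WT counts in fibroblasts held 2222 and 1760 counts in embryos, a ratio of 0.822 (0.772 to 0.876). The 18 loci with 10 or more WT counts in embryos held 662 and 733 counts in fibroblasts, a ratio of 1.07 (0.964 to 1.19). Loci without a WT read in fibroblasts had an embryo ratio of 11.2 (10.0 to 12.7), and loci without one in embryos a fibroblast ratio of 29.8 (25.6 to 35.0). Loci with 1 to 9 WT counts in fibroblasts had an embryo ratio of 8.67 (7.54 to 10.0). Those with 1 to 9 in embryos had a fibroblast ratio of 58.2 (48.9 to 69.8), above that of loci without a WT read. The ratio in the other tissue was thus not always largest at loci without WT reads.

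The 4 with most reads are given first. The IAPLTR2b at chr5:30549585-30556697 held 112 and 185 counts in fibroblasts, a ratio of 1.6 (1.26 to 2.04), and 329 and 206 in embryos, a ratio of 0.650 (0.544 to 0.776). Its LTR is printed above, and whether these reads start in that LTR was not tested. The IAPLTR2b at chr12:17935460-17937963 held 82 and 83, then 500 and 535, with ratios of 0.980 (0.714 to 1.35) and 1.11 (0.982 to 1.26). The IAPLTR2b at chr10:82928647-82935772 held 85 and 49, then 421 and 222, lower in either Lsh-/- library at 0.558 (0.385 to 0.803) and 0.547 (0.463 to 0.646). At the scaling used, the chromosome 12 locus was thus level in either tissue, the chromosome 10 locus was lower in both, and the chromosome 5 locus pointed opposite ways. The 1 kb interval 10 kb on the higher side of the chromosome 10 locus held 43 and 40 counts in fibroblasts and 132 and 47 in embryos. That of the chromosome 5 locus held 94 and 54, then 132 and 37. These intervals thus also held fewer Lsh-/- counts in embryos, and whether the elements changed apart from their surroundings was not tested. The IAPLTR2a at chr16:22033454-22036020 held 111 and 120, then 243 and 192, with ratios of 1.05 (0.802 to 1.37) and 0.820 (0.675 to 0.995).

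Of the 10, 5 lie inside a protein-coding gene, all on the strand opposite to it. The chromosome 16 IAPLTR2a is in Senp2, which encodes a SUMO protease, and the 1 kb interval 10 kb on its higher side held 340, 449, 535 and 524 counts in WT fibroblasts, Lsh-/- fibroblasts, WT embryos and Lsh-/- embryos. The IAPLTR2_Mm at chr18:5109641-5113529 is in Svil, which encodes the actin-binding protein supervillin, and held 21 and 18, then 220 and 148 counts, with an embryo ratio of 0.698 (0.563 to 0.864). The other 3 lie in Gm15446, Mphosph9 and Atg2b, an autophagy gene. Outside genes, the IAPLTR2_Mm at chr5:136680090-136684461, 5.26 kb from Prkrip1, held 47 and 22 counts in fibroblasts, a ratio of 0.453 (0.260 to 0.767), and 58 and 48 in embryos. Whether the strand was used in counting is not given in the sources used here, so reads of an element and of a host gene on the other strand cannot be told apart.

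**Figure D3:**
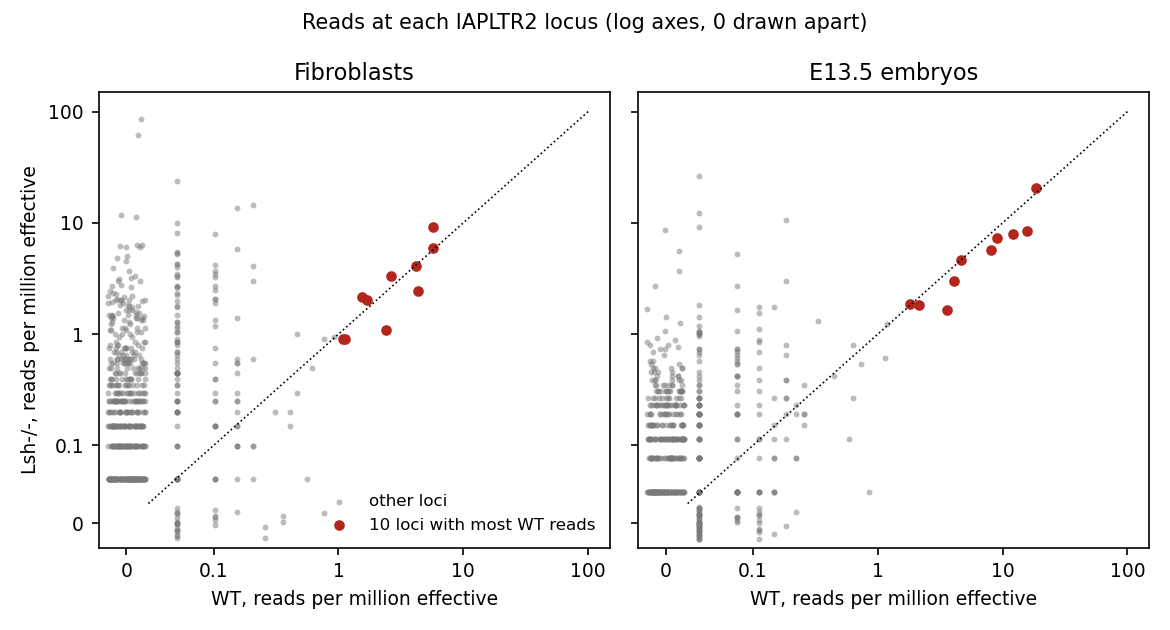
Reads per 1000000 effective reads at each IAPLTR2 locus in WT (x axis) and Lsh-/- (y axis), on log axes with loci at 0 drawn apart and spread to be visible, in fibroblasts and embryos (1 library per group). The 10 loci with most WT reads (red) lie along the dotted line of equality, with ratios of 1.05 and 0.792 over the set, and the other loci (grey) lie mostly above it.

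Loci with and without WT reads were compared on measures that the WT count of the same tissue does not enter. In fibroblasts 166 loci had WT reads and 586 did not. Among loci read in Lsh-/- fibroblasts the median Lsh-/- count was 12 (quartiles 4 and 42.8) at the 138 loci with WT reads and 4 (quartiles 2 and 11) at the 503 without. In embryos it was 6 at 172 loci and 3 at 340. Loci with WT reads thus also had more reads in Lsh-/- libraries.

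The place of the loci differed with WT reads. Of loci with fibroblast WT reads 23.0% lay inside protein-coding genes, against 14.6% of loci without, and WT reads were found in a flanking interval of 36.7% and 11.1%. In embryos the shares were 18.9% and 15.4% inside genes and 32% and 12.5% with flanking WT reads. WT reads in the other tissue were found at 46.4% of loci with and 26.3% of loci without fibroblast WT reads. Medians of unique words (413 and 432), LTR identity (98.8% and 98.6%) and CpG in the first 300 bases (13 and 13) were close in fibroblasts over the whole group. Within IAPLTR2_Mm the CpG median was 15 with and 13 without WT reads, and within IAPLTR2a it was 13 and 10. WT reads were found at 30.5% of IAPLTR2b, 23.0% of IAPLTR2a and 18.2% of IAPLTR2_Mm loci in fibroblasts and at 36.2%, 32.3% and 27.8% in embryos, the order of the names by unique words.

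The fold change was lower where the WT count, which enters it, was higher. Among tested loci with WT reads 24 of 92 were above 5 in fibroblasts and 8 of 84 in embryos. Loci with 1 WT count had pooled ratios of 27.6 in fibroblasts and 16.7 in embryos. Loci with 10 or more WT counts were below 0 at 8 of 15 in fibroblasts and at 14 of 18 in embryos, with pooled ratios of 1.01 and 0.781.

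The place relative to genes was read by strand. Of the 122 loci inside protein-coding genes, 21 lie on the gene's strand and the rest on the other strand. In fibroblasts 6 of 8 tested same-strand loci, 19 of 34 opposite-strand loci and 137 of 188 loci outside genes were above 5, which is 55.9% and 72.9% for the latter classes. In embryos it was 3 of 5, 7 of 24 (29.2%) and 38 of 93 (40.9%). WT reads were found at 33.7% of opposite-strand loci and 20.6% of loci outside genes in fibroblasts. Of the 5 loci that overlap an exon of a protein-coding gene, the 3 with most counts were examined. The IAPLTR2b at chr4:63235000-63238586, over an exon of 6330416G13Rik, held 12 and 10 counts in fibroblasts and 32 and 32 in embryos. The IAPLTR2_Mm loci over exons of Gm17672, at chr1:95003951-95008298, and of Nubpl, at chr12:53273658-53277636, held 0 and 11 and 0 and 3 in fibroblasts and 0 and 4 and 1 and 1 in embryos. Only the first of these had reads at a like level in all 4 libraries.

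Among sequence features, Lsh-/- counts went with CpG and width. In fibroblasts the median Lsh-/- count was 1 at the 194 loci with at most 9 CpG in the first 300 bases, 3 at the 308 with 10 to 14, 8 at the 169 with 15 to 19 and 11 at the 69 with 20 or more. The number of unique words did not follow this order, with medians of 386.5, 573.5, 375 and 183 in these classes. Per 1000 unique words the Lsh-/- fibroblast counts were 21.2, 24.0, 43.7 and 106, and the WT counts 1.43, 2.36, 1.54 and 5.40. In Lsh-/- embryos they were 11.7, 13.7, 20 and 43.7. Values per unique word were also high where unique words were few. Loci with at most 264 such words held 138 Lsh-/- fibroblast counts per 1000. Those with 265 to 427, 430 to 675 and 677 or more held 23.8, 22.4 and 21.2. Of the 4151 counts of the lowest class, 1715 lay on the chromosome 4 IAPLTR2a. The class with 20 or more CpG had the lowest median of unique words, and their part in its value of 106 was not tested. Median Lsh-/- fibroblast counts, which are not divided by unique words, rose with CpG in the LTR.

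The order held within 2 of the 3 names. Median Lsh-/- fibroblast counts at or above and below the name's median CpG were 8 and 2 for IAPLTR2_Mm, 5 and 2 for IAPLTR2a and 4.5 and 8 for IAPLTR2b. At or above the name's median CpG, IAPLTR2_Mm loci had 53.3 Lsh-/- fibroblast counts per 1000 unique words and below it 9.22. For IAPLTR2a the values were 67.6 and 16.1, of which the upper includes the chromosome 4 locus with 1715 counts. For IAPLTR2b they were 22.1 and 30.3, the other way round. Over loci read in Lsh-/- fibroblasts, Spearman's rho of the count with CpG was 0.44 (344 IAPLTR2_Mm loci), 0.32 (131 IAPLTR2a loci) and 0.05 (155 IAPLTR2b loci). The loci share 1 library, and these correlations are descriptions.

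Longer copies held more reads. The median Lsh-/- fibroblast count was 1 at 234 loci under 3000 bp, 4 at 348 loci of 3000 to under 5000 bp, 12.5 at 88 loci of 5000 to under 7000 bp and 23 at 70 loci of 7000 bp or more. The summed Lsh-/- fibroblast counts of these classes per 1000 unique words were 8.78, 25.2, 49.8 and 51.7. Of the 5118 counts of the second class, 1715 lay on the chromosome 4 IAPLTR2a. Of the 4193 of the last, 1231 lay on the chromosome 4 IAPLTR2b. Spearman's rho of count and width was 0.50 to 0.58 within the 3 names in fibroblasts and 0.27 to 0.49 in embryos. The rho of the Lsh-/- count with LTR identity was 0.07 in fibroblasts (596 loci) and 0.11 in embryos (480 loci). Per 1000 unique words, however, loci with LTRs at least 99% identical held 61.5 Lsh-/- and 4.94 WT fibroblast counts, against 23.7 and 1.06 at loci under 95% and 18.6 and 1.58 between. Of the 6095 Lsh-/- counts at 99% and above, 1715 lay on the chromosome 4 IAPLTR2a. Of the 3683 under 95%, 1231 lay on the chromosome 4 IAPLTR2b. The values without these loci were not computed. With them, the per-position order and the order of counts differ for LTR identity. The class at 99% and above also had the lowest median of unique words, 283.5 against 659.5 under 95% and 521 between. Few unique words go with high values per position, as given above.

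The tissues were set side by side at the 111 loci with 10 counts in either pair. Of these, 74 were above 5 in fibroblasts and 44 in embryos, and 38 were above it in both, which is 51.4% of the fibroblast and 86.4% of the embryo list. Over all LTR loci tested in each tissue, 60.3% were above 5 in fibroblasts and 26.5% in embryos. The overlap over all LTR loci was not taken, so that of the group is not read as particular to it. The value was larger in fibroblasts at 81 loci, with medians of 6.45 in fibroblasts and 4.0 in embryos. Values at loci without a WT read in either tissue depend on the prior count. Over these loci Pearson's r was 0.60 and Spearman's rho 0.43, and over the 449 loci read in both Lsh-/- libraries the counts had a rho of 0.62. The points share their unique positions and the prior count. A set of 10 loci lay within 1 of 0 in either tissue.

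**Figure D4:**
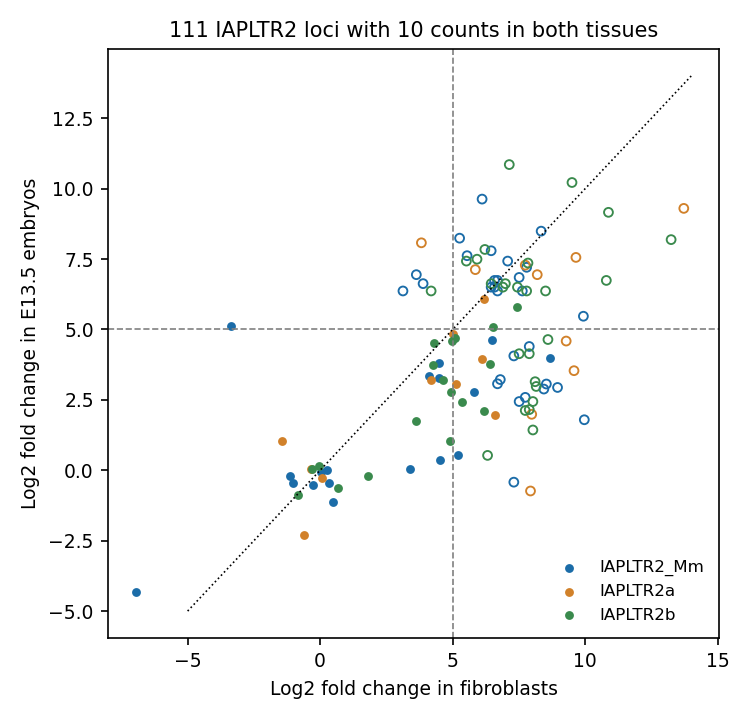
Log2 fold change (Lsh-/- over WT) in fibroblasts (x axis) and in E13.5 embryos (y axis) of the 111 IAPLTR2 loci with at least 10 counts in each pair, coloured by repeat name. Open points lack a WT read in at least 1 tissue, dashed lines mark the limit of 5 and the dotted line equality. Most points (81) lie below the dotted line, and a group of filled points lies near 0 on each axis.

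The loci with the largest difference between tissues were taken in each direction. In favour of fibroblasts these were the chromosome 13 IAPLTR2_Mm given above, at 9.97 and 1.79, and the IAPLTR2a at chr13:105781300-105786912 in Rgs7bp, a gene for an adaptor of RGS proteins, with 0 and 31 counts in fibroblasts and 7 and 4 in embryos (7.94 and −0.74). In favour of embryos they were the IAPLTR2_Mm at chr4:140763522-140766506, with 11 and 1 counts in fibroblasts and 2 and 71 in embryos (−3.35 and 5.12), and the IAPLTR2a at chr11:84874950-84881370 in Usp32, a deubiquitinase gene, with 4 and 60 and then 0 and 33 (3.82 and 8.08). The direction at the latter rests on the prior count, since the embryo change is at least 11.4-fold and the fibroblast ratio is 14.5 (5.39 to 55). The chromosome 4 locus was lower without Lsh in fibroblasts and higher in embryos. The ratios at that locus were 0.0880 (0.00205 to 0.606) and 36.9 (9.83 to 310).

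Few tested loci had lower counts in Lsh-/-. Tested loci without a WT read, 142 of 234 in fibroblasts and 41 of 125 in embryos, cannot lie below 0. In fibroblasts 5 of 234 loci were below −1, where 95 of all 2103 tested LTR loci were. In embryos 4 of 125 were, where 213 of all 1795 were. Below −5 was 1 fibroblast locus of the group, where 9 of all tested LTR loci were. This locus, named after its values were seen, is the IAPLTR2_Mm at chr1:187127378-187130388 in Iars2, which encodes the mitochondrial isoleucyl-tRNA synthetase, with 15 (WT) and 0 (Lsh-/-) counts in fibroblasts and 23 and 1 in embryos. It was the lowest value of the group in either tissue, at −6.94 and −4.31. With 0 Lsh-/- counts the value of −6.94 depends on the prior count, and against the floor of 3 counts it is −2.37. Over the 111 loci tested in both tissues, 6 were below 0 in both.

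Transcription around the elements was read from the deposited flanking tables. By comparison with LINE counts, each interval fits a window 1 kb wide that lies 10 to 11 kb from the element's edge, on the side of lower coordinates in the upstream tables and of higher coordinates in the downstream tables whatever the strand, whereas the study's text gives the intervals the width of the element. Of LINE loci with 50 or more WT fibroblast counts lying wholly in such a window, 100% had no more counts than the interval, against 60.6% to 71.2% for windows 1 kb nearer or farther. The interval is thus narrower than most elements, and a count in it is not on the scale of the element's count.

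Flanking intervals of IAPLTR2 loci had medians far below those of the elements. In fibroblasts the upstream intervals held 8504 and 7074 counts, and 9 of 54 tested intervals were above 5 (16.7%, 9.02 to 28.7), where 13.4% of all upstream LTR intervals were above it, with a median of 0.17 (−0.05 to 0.34). The downstream intervals held 3397 and 4142 counts, and 5 of 43 were above 5 (11.6%), where 12% of all downstream LTR intervals were, with a median of 0.21. In embryos 4 of 59 upstream intervals (6.78%) were above 5, where 3.8% of all such intervals were, and the median was 0.16. Downstream 2 of 53 (3.77%) were above 5, where 3.2% of all such intervals were, and the median was −0.08. The shares lay near those of all LTR loci on each side. With libraries scaled to the total over 6 tables, the fibroblast medians were 0.84 upstream and 0.88 downstream, against 6.95 for the elements.

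Around the loci above 5 themselves most intervals were empty, and some of the others were higher in Lsh-/-. The 166 fibroblast loci held 34 and 10502 counts, and 117 of them (70.5%) had no read in a flanking interval of either library on either side. Their upstream intervals held 157 and 401 counts, with 7 of 12 tested intervals above 5, and their downstream intervals 169 and 317, with 3 of 6 above 5. The 49 embryo loci held 14 and 2971 counts, and 32 of them (65.3%) had no flanking read. Their upstream intervals held 301 and 490 counts, with 3 of 8 above 5, and of the 5 tested downstream intervals 0 were above 5. In fibroblasts the tested intervals beside these loci were thus above 5 more often than those of the group as a whole, on small numbers and without a test. Among all intervals of the group above 5, the largest in fibroblasts belonged to the IAPLTR2b at chrX:64036245-64039233, with 0 and 70 counts upstream against 0 and 10 on the element, and to the IAPLTR2a at chr17:61151365-61154360, with 0 and 50 counts downstream against 1 and 0 on the element. The upstream interval of the highest IAPLTR2b, on chromosome 4, held 0 and 35 counts, and the downstream interval of the IAPLTR2b at chr10:55435352-55440642 held 0 and 25. In embryos the largest were upstream of the IAPLTR2b loci at chr1:100496970-100500313 (0 and 68 counts) and chr18:37048211-37051832 (0 and 29), and downstream of the same chromosome 17 IAPLTR2a (0 and 33) and of the IAPLTR2_Mm at chrX:146247281-146250191 (0 and 11). The chromosome 17 interval was higher in either Lsh-/- library although its element held at most 1 read in each library.

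**Figure D5:**
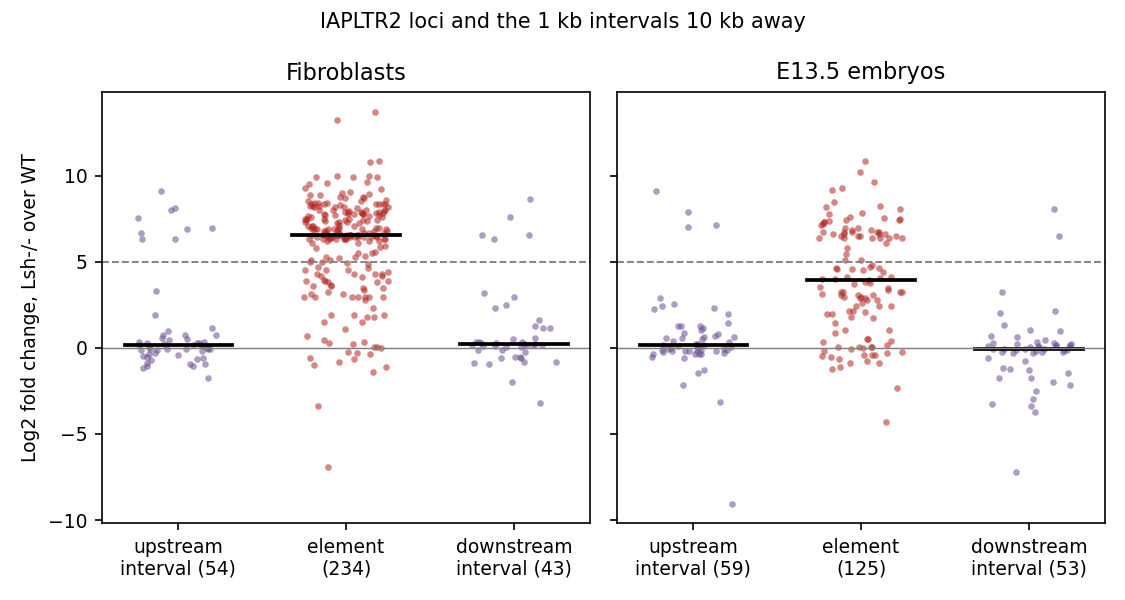
Log2 fold change (Lsh-/- over WT) of IAPLTR2 elements (red) and of the 1 kb intervals 10 kb on the lower (upstream) and higher (downstream) side (purple) that reached 10 counts, in fibroblasts and E13.5 embryos (1 library per group). Numbers in brackets count loci, black bars are medians and the dashed line is the limit of 5. Medians of the elements are 6.58 and 3.94, and medians of the intervals lie between −0.08 and 0.21.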

How the data were processed

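RNA-seq libraries were paired-end and strand-specific (dUTP method). The authors mapped reads to mm9 with TopHat 1.4.0, allowing no mismatch, retained reads with a single hit and joined them to repeatmasker annotation in Galaxy. The deposited values are raw counts of reads per locus and per flanking interval, without normalization, and the authors used edgeR for their own differential analysis. Whether strand was used in counting, and whether a read pair counts as 1 or more, is not given in the sources used here. Unique mapping lowers the count of young, near-identical copies, and a read can stem from a longer transcript through the element.

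Loci without a read are not listed, and a locus listed in 1 library was given 0 in the others. Starts count from 0 in the files and are printed from 1 on mm9. Sequence and genes came from NCBIM37 and GENCODE vM1, whose chromosomes hold 740 of the 752 members. LTRs were found by aligning the first and last 700 bases (Biopython 1.88, pysam 0.24.0). Unique words of 50 bases were counted over both strands, with words of 36 and 100 bases as alternatives.

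Libraries of a pair were scaled by TMM (edgeR 4.0.16, R 4.3.3) over intervals flanking LINE-1 loci (294240 in fibroblasts, 335158 in embryos). DESeq2 1.42.0 gave alternative size factors. Log2 fold changes (Python 3.11.15, NumPy 2.4.6, SciPy 1.17.1) took a prior count of 0.125 and at least 10 counts in the pair. Sums have exact Poisson, ratios exact conditional binomial, shares Wilson and medians order-statistic intervals, all at 95%. Overlap of the intervals of 2 groups of loci is a description and not a test. Scaling and fold changes were tested on simulated data. Alternatives changed the scaling, prior count, count minimum, limit, treatment of loci without WT reads and the set of loci. Figures were drawn with matplotlib 3.10.9.

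The members, lists and limits were chosen with earlier results of these data known. Loci named are, per tissue, the 3 with the largest total of each name, the 3 with the largest WT count, the 3 with the largest total below 0, and the 3 with the largest Lsh-/- count without a WT read. Added are the 2 with the largest difference between tissues in each direction, the 3 with most counts over protein-coding exons, and per tissue and side the 2 flanking intervals with the largest total above 5. LINE loci were used only for scaling and checks. The LINE-table element counts were used to locate the flanking windows.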

Additional observations from a re-analysis of the deposited data

Results flagged for a closer look

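Loci with at least 10 counts in each tissue, where Lsh-/- was lower than WT in fibroblasts and higher in embryos by more than 1 on the log2 scale, were singled out. The difference was not tested, since each group has 1 library. The IAPLTR2_Mm at chr4:140763522-140766506 had log2 fold changes of −3.35 in fibroblasts (11 and 1 counts) and 5.12 in embryos (2 and 71 counts). The IAPLTR2a at chr12:92465985-92468539, inside 4930534B04Rik, had −1.42 in fibroblasts (8 and 3 counts) and 1.04 in embryos (5 and 10 counts).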

How the results depend on the processing

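The share of loci above 5 depended on how loci without WT reads are treated and on the count minimum. In fibroblasts 166 loci were above 5. A prior count of 1 gave 62, all listed loci 287 (of 669), a minimum of 50 counts 43 (of 57), and the lower bound for loci without a WT read 34. In embryos 49 loci were above 5, and the same settings gave 12, 153 (of 571), 10 (of 23) and 11, with 97 above a limit of 1. The fibroblast median of 6.58 was 4.07 with a prior count of 1, 4.62 over all listed loci, 6.41 with at least 50 counts, 3.12 at the lower bound, 6.08 with each LTR table's total count and 6.95 with the total over 6 tables. The embryo median of 3.94 was 2.44 at the lower bound. The other 26 alternatives of these 4 results stayed within 1.5 times the count or within the spread of the median over loci, among them DESeq2 size factors, leaving out chromosomes X and Y or overlapping loci, and leaving out the 10 loci with most WT reads, which was chosen after the data were seen (166 of 224 and 49 of 115 above 5). The fibroblast medians of the flanking intervals were 0.84 upstream and 0.88 downstream with the total over 6 tables, against 0.17 and 0.21. The 1 reversed value was the embryo median of IAPLTR2_Mm with at least 50 counts, −0.0042 over 9 loci, against 3.80 over 59. No paired analysis was possible because each group has 1 library, and none could be left out in turn. In WT fibroblasts 586 of 752 loci had no read, which allows up to 3 counts each, and the values cover counting error only.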
